A study of Homo sapiens with 12 samples.

Results

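The response of HEK293T cells to a reactive lipid aldehyde was compared directly with their response to hydrogen peroxide. The comparison used 8 of the 12 RNA-seq libraries of the study: the 4 libraries of cells given 4-hydroxynonenal and the 4 of cells given H2O2, taken by the agent in their labels, without the 4 untreated libraries. HEK293T is a human embryonic kidney line. Lentivirus and puromycin selection had been used to make a pair of lines: shHuR cells carry a hairpin that targets HuR, an RNA-binding protein, and shControl cells (shCtrl in group names) a control sequence. Each line thus stands for 1 hairpin. The groups were shControl cells with 25 µM HNE(alkyne) for 18 h, shControl cells with 225 µM H2O2 for 18 h, and the same treatments of shHuR cells, with 2 biological replicates each. HNE(alkyne) is 4-hydroxynonenal carrying an alkyne tag. The doses of the agents differed, so a difference below is between these treatments and not between equal amounts of the agents.

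HNE forms when membrane lipids are oxidised, and it reacts with cysteine, histidine and lysine side chains of proteins. H2O2 oxidises thiols and is removed by catalase, peroxiredoxins and glutathione peroxidases. Both kinds of stress are known to act on KEAP1, the sensor that holds the transcription factor NRF2 (gene NFE2L2) at low levels. When KEAP1 is modified, NRF2 accumulates and binds antioxidant response elements near genes for heme breakdown, iron storage, the thioredoxin and glutathione systems and NADPH supply.

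Where promoters are discussed below, the antioxidant response element is the 9-letter core TGACNNNGC (N, any base), searched on both strands from 250 bases before to 50 after each start in RefSeq promoters of GRCh38.p14. A match is a description of the letters and not a measured binding site. The stretches shown are those around the match in TXNRD1, called higher with HNE, at 2 of its listed starts, in the NRF2 targets ME1 and GCLM, and in CYP4V2, which had the largest difference among the genes called lower. Capitals mark the match, which appears as its reverse complement where it lies on the other strand.
TXNRD1, chr12:104215650-104215718, plus strand: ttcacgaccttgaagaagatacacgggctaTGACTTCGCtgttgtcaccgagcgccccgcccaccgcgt
TXNRD1, chr12:104286900-104286968, plus strand: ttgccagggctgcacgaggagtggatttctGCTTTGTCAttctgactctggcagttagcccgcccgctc
ME1, chr6:83431150-83431218, minus strand: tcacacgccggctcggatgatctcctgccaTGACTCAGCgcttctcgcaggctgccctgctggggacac
GCLM, chr1:93909431-93909494, minus strand: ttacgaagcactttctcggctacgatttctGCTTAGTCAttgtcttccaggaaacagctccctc
CYP4V2, chr4:186191432-186191500, plus strand: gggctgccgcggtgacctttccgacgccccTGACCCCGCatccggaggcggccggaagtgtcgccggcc

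Total counts of the 8 libraries ran from 25358173 to 29907258. ELAVL1, the gene of HuR, was lower in the shHuR line, at 69.3 to 74.5 CPM (counts scaled to library size) against 92.2 to 99.4 CPM in the treated shControl libraries, and it did not differ between the agents beyond the spread (log2 fold change -0.02, SE 0.0516, adjusted p = 0.898). Of the HEK293T markers, VIM, LIN28B and NEFL stood above 66 CPM in every library and PAX2 at 0.491 CPM or below. Markers of blood, fibroblast, liver, endothelial and keratinocyte cells summed to 8.83 to 11.8 CPM in the H2O2 libraries and 10.3 to 14.3 CPM in the HNE libraries. Of these 15 markers, HBB was at 0 in all libraries, and the highest were LYZ at 3.79 to 7.20 CPM and COL1A1 at 2.17 to 4.86 CPM. A pair of shControl libraries stood apart: 17278 genes had a count in H2O2 replicate 1 and 17524 in HNE replicate 1, against 18057 to 18301 in the other 10 libraries. The replicates of shCtrl-HNE were the least alike. The chi-square of their counts per degree of freedom was 22.6, against 3.02 to 10.9 in the other groups, untreated ones included.

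Cells given HNE differed from cells given H2O2 in a short list of genes led by HMOX1, the enzyme that breaks down heme. The iron-storage subunit FTL, the thioredoxin reductase TXNRD1, the nuclear iron protein PIR and the autophagy receptor SQSTM1 were also higher with HNE. CYP4V2, a fatty acid hydroxylase, TXNIP, an inhibitor of thioredoxin, and MCM5, a subunit of the replicative helicase, were lower. In edgeR's quasi-likelihood test with line as a covariate and Benjamini-Hochberg adjustment, 18 of 15769 genes had an adjusted p under 0.05 (0.114% of the genes tested), and these are the genes called below. With HNE 11 were higher (0.0698%) and 7 lower (0.0444%). An unadjusted p under 0.05 was found for 2232 genes (14.2%), 1110 higher (7.04%) and 1122 lower (7.12%). In all 18 called genes the libraries of the agents did not overlap within a line, where 6.6% of all genes did so upwards and 6.44% downwards. In 15, not CALCB and TXNIP, all 4 libraries of 1 agent lay beyond all 4 of the other. Of all genes 2.67% did so upwards and 2.54% downwards. The genes were called on these same libraries, so their separation is a description and not further evidence.

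The length of this list depended on which libraries were fitted. It held 5 genes without shHuR-H2O2 replicate 1, 5 without shHuR-H2O2 replicate 2, 5 without shHuR-HNE replicate 1 and 5 without shHuR-HNE replicate 2. Without shCtrl-H2O2 replicate 1 it held 8 and without replicate 2 of that group 9. Without shCtrl-HNE replicate 1 it held 267 and without replicate 2 of that group 70. Without both libraries that stood apart, it held 359 of 16064 genes (2.23%), 176 higher (1.1%) and 183 lower (1.14%), and all 18 genes were among them. With all 12 libraries in the fit 149 genes were called (0.931%), and by DESeq2's Wald test on the 8 libraries 325 (2.06%, 1.1% higher and 0.964% lower), each time with all 18 among them. The gene lists below are therefore also counted with DESeq2 and without both libraries that stood apart. The shares over all genes to set beside a list are 7.04% higher and 7.12% lower at an unadjusted p under 0.05. For DESeq2 and for the fit without both libraries they are the shares given above.

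**Figure D1:**
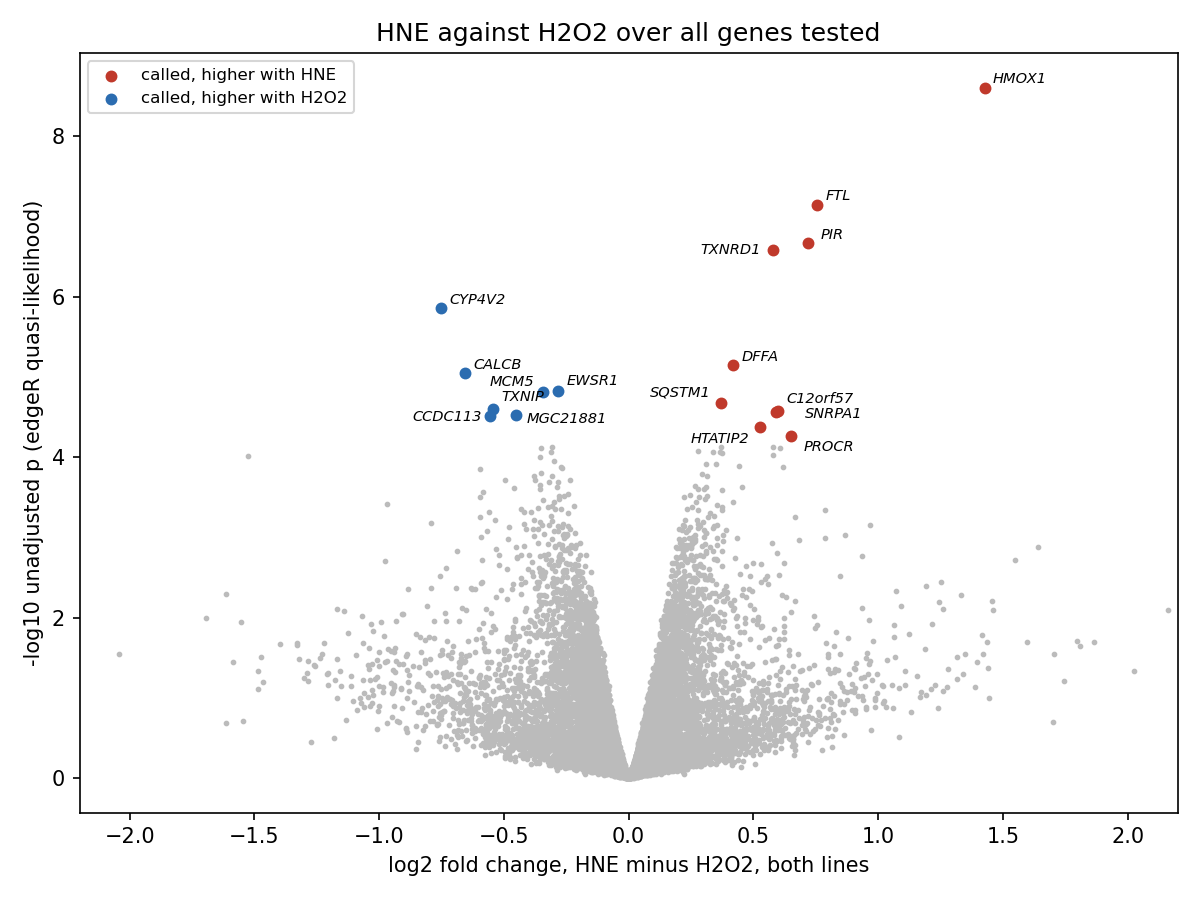
HNE against H2O2 over 15769 genes, both lines. The x axis is the log2 fold change (HNE minus H2O2), the y axis the −log10 of the unadjusted p of edgeR's test. Red points are 10 of the 11 genes called higher with HNE, blue points the 7 called lower, and 5 genes beyond 2.2 on the x axis, none of them called, are not drawn. HMOX1 stands alone at a log2 fold change of 1.43.

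Among the called genes, those with the largest differences towards HNE belong to heme breakdown and iron storage. In the shControl line HMOX1 stood at 25.0 and 30.5 CPM with HNE, 10.4 and 10.4 with H2O2 and 9.34 and 10.6 untreated, and in the shHuR line it stood at 25.7 and 31.7 CPM with HNE, 9.36 and 11.7 with H2O2 and 11.1 and 10.7 untreated. All 4 HNE libraries stood above all 8 others, and the H2O2 libraries lay in the range of the untreated ones or close to it. The mean was 28.2 ± 3.39 CPM with HNE against 10.5 ± 0.969 with H2O2 (SD, n = 4), a ratio of 2.69 (log2 fold change 1.43, SE 0.102, adjusted p = 3.91e-05). HMOX1 was the single called gene with a difference of at least 2-fold, and it was called in each of the 20 alternative fits. In bulk libraries a higher level in every cell and more cells with the transcript cannot be told apart.

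FTL encodes the light chain of ferritin, the iron-storage shell. In the shControl line FTL stood at 196 and 183 CPM with HNE, 119 and 131 with H2O2 and 113 and 113 untreated, and in the shHuR line it stood at 208 and 233 CPM with HNE, 114 and 120.2 with H2O2 and 109.7 and 130.3 untreated. HNE was again above H2O2 in every library, by a ratio of mean CPM of 1.69 (log2 fold change 0.76, SE 0.0710, adjusted p = 5.62e-04). The heavy chain FTH1, which oxidises the iron that is stored, stood at 94.2 and 114 CPM with HNE against 77.5 and 94.4 with H2O2 in the shControl line, and 99.7 and 108 against 85.9 and 87.4 in the shHuR line. The FTH1 groups overlapped in the shControl line and its difference did not pass (log2 fold change 0.27, SE 0.0714, adjusted p = 0.130). FTH1 was called by DESeq2 (adjusted p = 0.0251) and without both libraries that stood apart (adjusted p = 0.0341). Of 20 heme and iron genes tested, HMOX1 and FTL were called higher (against 0.0698% of all genes) and none lower. DESeq2 called 4 higher, FTH1, FTL, HMOX1 and the transferrin receptor gene TFRC, and 3 were called higher without both libraries that stood apart, with none lower in either. The list's median log2 fold change was 0.06, against 0.00 over all genes tested.

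TXNRD1 is the selenoprotein that reduces thioredoxin. In the shControl line TXNRD1 stood at 352 and 383 CPM with HNE, 270.3 and 266 with H2O2 and 260.2 and 262 untreated, and in the shHuR line it stood at 372 and 411 CPM with HNE, 237 and 244 with H2O2 and 251 and 219.9 untreated. The groups did not overlap, and the ratio of mean CPM was 1.49 (log2 fold change 0.58, SE 0.0605, adjusted p = 0.00103). TXNIP, which binds and inhibits thioredoxin, was called lower. It stood at 8.44 and 8.01 CPM with HNE against 12.1 and 10.7 with H2O2 in the shControl line, and 14.7 and 15.4 against 21.9 and 24.0 in the shHuR line, so that HNE was below H2O2 within each line while the lines themselves lay far apart (log2 fold change -0.54, SE 0.0860, adjusted p = 0.0315). TXNIP was no longer called without shCtrl-H2O2 replicate 1 or without any 1 of the 4 shHuR libraries. Of 24 thioredoxin and peroxiredoxin genes tested, TXNRD1 was called higher (against 0.0698% of all genes) and TXNIP lower (against 0.0444%). At an unadjusted p under 0.05, 7 were higher and 3 lower (against 7.04% and 7.12% of all genes). DESeq2 called 5 higher and 1 lower, and 6 higher and 2 lower were called without both libraries that stood apart.

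PIR, an iron-binding nuclear protein, stood at 29.7 and 31.8 CPM with HNE against 18.5 and 17.7 with H2O2 in the shControl line, and 23.5 and 25.6 against 14.6 and 16.3 in the shHuR line (log2 fold change 0.72, SE 0.0739, adjusted p = 0.00103). All 4 HNE libraries were above all 4 H2O2 libraries. Some of its deposited counts are not whole numbers, which can occur when a read is shared out among genes, so the level of PIR is uncertain. SQSTM1, the receptor that brings ubiquitinated cargo and KEAP1 to autophagy, stood at 109 and 128 CPM with HNE against 92.4 and 88.7 with H2O2 in the shControl line, and 105 and 113 against 84.2 and 86.1 in the shHuR line (log2 fold change 0.37, SE 0.0579, adjusted p = 0.0315). SQSTM1 lost its call without any 1 of the 4 shHuR libraries and without either shCtrl-H2O2 library.

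**Figure D2:**
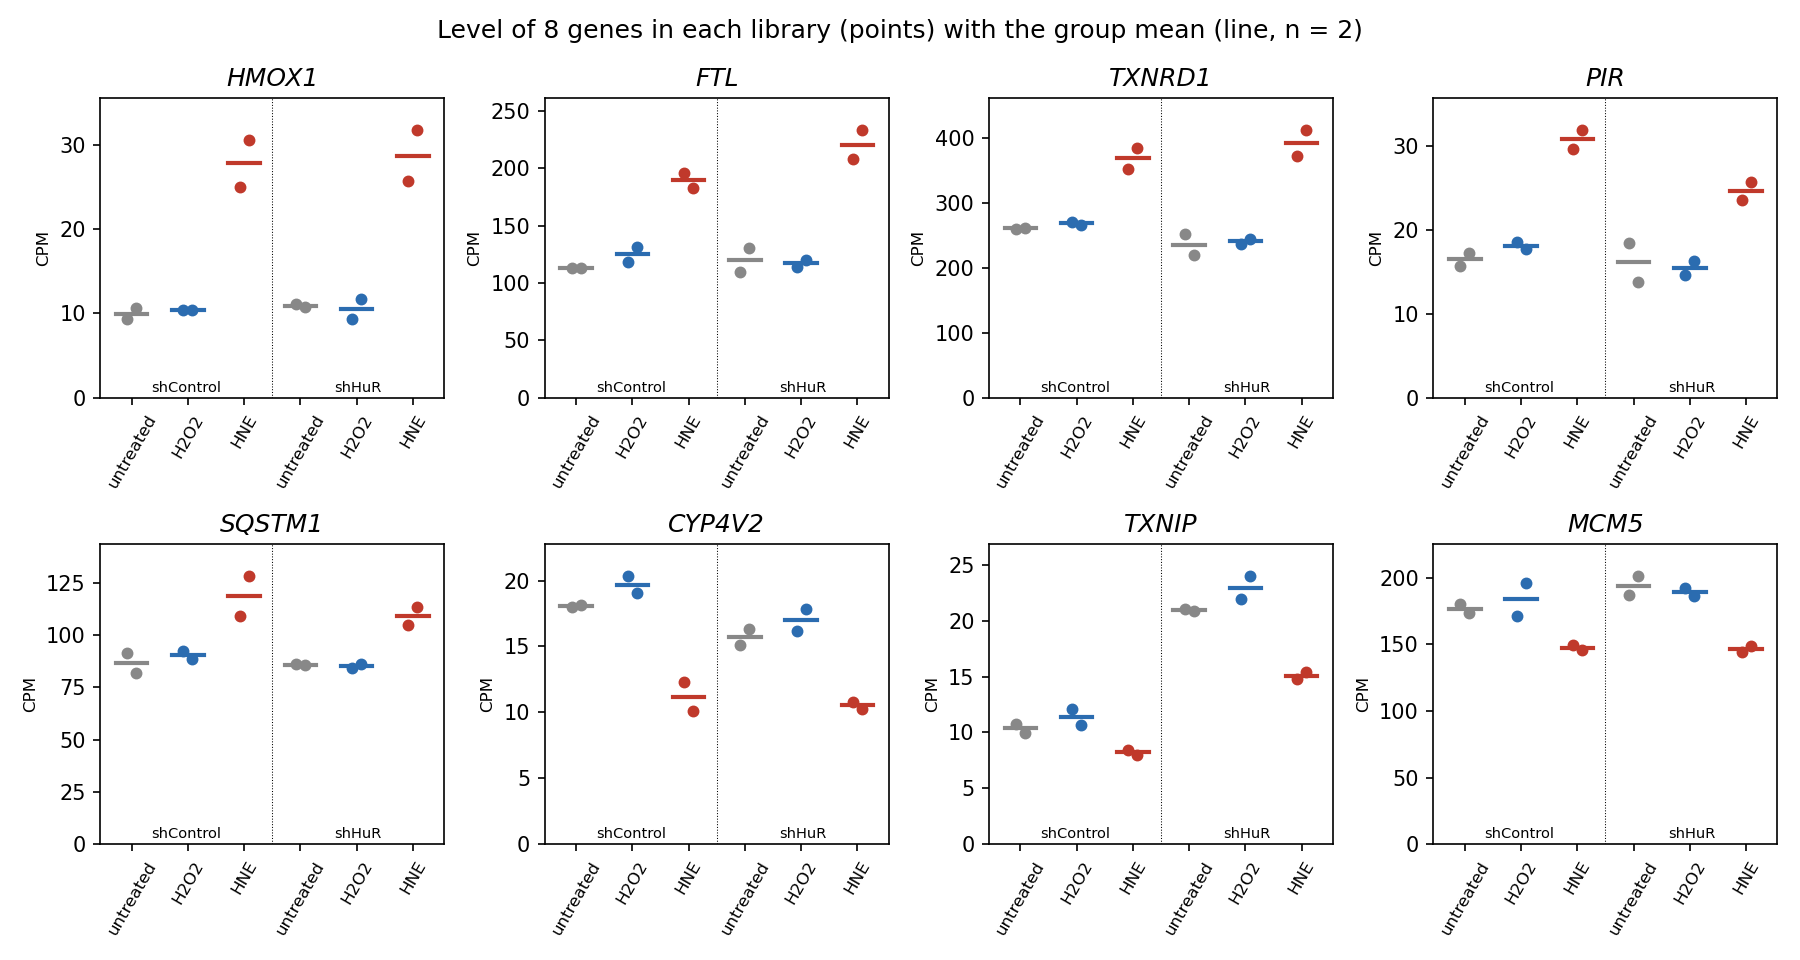
Level of 8 called genes in each of the 12 libraries. The y axis of each panel is CPM from 0, points are libraries, lines are group means (n = 2), and grey, blue and red mark untreated, H2O2 and HNE cells of the shControl line (left) and shHuR line (right). In HMOX1 the HNE libraries reach 25.0 to 31.7 CPM, while the H2O2 libraries stay at 9.36 to 11.7 CPM beside the untreated ones at 9.34 to 11.1 CPM.

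The other targets of NRF2 were described from a list of 40 genes, of which 34 had enough counts to be tested; the aldo-keto reductases AKR1B10, AKR1C1, AKR1C2 and AKR1C3, the transporter ABCC3 and the reductase PTGR1 did not. HMOX1, FTL, PIR, TXNRD1 and SQSTM1 were called higher (5 of 34, against 0.0698% of all genes) and none was lower. At an unadjusted p under 0.05, 14 were higher and none lower (against 7.04% and 7.12% of all genes). The HNE libraries lay above the H2O2 libraries in each line for 12 of the 34, and none lay below, where 6.6% of all genes were above and 6.44% below in this sense. The median log2 fold change of the list was 0.14 (0.11 in the shControl line and 0.16 in the shHuR line). These 5 genes belong to the 18, and the list was written with results of these data known, so the counts are a description.

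NQO1, the quinone reductase often used as a marker of NRF2 activity, missed the threshold narrowly. It stood at 7.54 and 7.77 CPM with HNE against 4.51 and 5.04 with H2O2 in the shControl line, and 10.0 and 11.0 against 7.41 and 7.62 in the shHuR line, with no overlap within a line (log2 fold change 0.58, SE 0.105, adjusted p = 0.0503). GSR, which regenerates glutathione, stood at 152 and 176 CPM with HNE against 144 and 127 with H2O2 in the shControl line, and 147 and 145 against 110.1 and 119 in the shHuR line (log2 fold change 0.31, SE 0.0609, adjusted p = 0.0611). ME1, the malic enzyme that makes cytosolic NADPH, stood at 27.7 and 31.1 CPM with HNE against 18.7 and 25.7 with H2O2 in the shControl line, and 31.1 and 30.01 against 21.6 and 21.3 in the shHuR line (log2 fold change 0.45, SE 0.0913, adjusted p = 0.0684). In all 3 genes the HNE libraries were above the H2O2 libraries of the same line. All 3 were called by DESeq2, which called 11 of 34 targets higher and none lower, and without both libraries that stood apart, where 12 were called higher and none lower.

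Genes of glutathione synthesis did not pass. GCLM, the modifier subunit of glutamate-cysteine ligase, stood at 47.2 and 42.0 CPM with HNE against 38.8 and 36.5 with H2O2 in the shControl line, and 49.1 and 52.1 against 44.0 and 44.8 in the shHuR line, with no overlap within a line but without passing the test (log2 fold change 0.22, SE 0.0620, adjusted p = 0.155). Its catalytic partner GCLC overlapped in the shControl line and did not pass (log2 fold change 0.11, SE 0.0761, adjusted p = 0.534). SLC7A11, the cystine importer, stood at 140.0 and 138 CPM with HNE against 141 and 136 with H2O2 in the shControl line, and 115 and 109 against 118 and 119 in the shHuR line, and its difference was small beside its error (log2 fold change -0.04, SE 0.0478, adjusted p = 0.748). SRXN1, which repairs overoxidised peroxiredoxins, did not pass either (log2 fold change 0.21, SE 0.0781, adjusted p = 0.260), with a log2 fold change of 0.38 in the shHuR line and 0.03 in the shControl line. None of 27 glutathione genes was called by edgeR, and DESeq2 called 3 higher and 1 lower. At an unadjusted p under 0.05, 6 were higher and 2 lower (against 7.04% and 7.12% of all genes). Leaving out both libraries that stood apart, 2 were called higher and 1 lower. CTH, which makes cysteine from cystathionine, had the lowest estimate of those named from that list, at 22.6 and 21.4 CPM with HNE against 27.3 and 31.2 with H2O2 in the shControl line, and 17.6 and 17.6 against 23.3 and 21.3 in the shHuR line (log2 fold change -0.38, SE 0.0732, adjusted p = 0.0611).

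The transcripts of the sensor and the factor themselves did not pass. NFE2L2 stood at 24.4 and 24.5 CPM with HNE against 29.1 and 29.5 with H2O2 in the shControl line, and 23.5 and 26.9 against 26.9 and 25.6 in the shHuR line (log2 fold change -0.16, SE 0.0731, adjusted p = 0.343), with overlap in the shHuR line. KEAP1 stood at 65.8 and 76.5 CPM with HNE against 63.2 and 63.5 with H2O2 in the shControl line, and 71.0 and 74.8 against 69.4 and 65.2 in the shHuR line (log2 fold change 0.14, SE 0.0583, adjusted p = 0.301). Of 12 genes of NRF2 and its regulators, SQSTM1 was the 1 called by edgeR, and DESeq2 called MAFK, a partner of NRF2 on DNA, as well. In that list 1 gene was called higher and none lower without both libraries that stood apart.

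The core shown in capitals above was found in 2 of 9 genes called higher that had a listed promoter, TXNRD1 and PIR (22.2%), and in 1 of 4 called lower, CYP4V2 (25%). It was found in 10 of 28 NRF2 targets tested (35.7%) and in 11 of 26 genes of an ATF4 list (42.3%). Of all tested genes with a promoter, 19.0% held it. A gene was counted if any of its listed promoters held the core, so these shares are per gene. Counted per single promoter, which is not a like unit, the share was 13.35% of all 35116 promoters of the same length. HMOX1, CALCB, MGC21881 and MCM5 matched no entry.

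Other genes called higher come from several other processes. PROCR, the receptor of protein C, stood at 8.34 and 8.09 CPM with HNE against 5.19 and 5.54 with H2O2 in the shControl line, and 6.33 and 7.26 against 4.33 and 4.07 in the shHuR line (log2 fold change 0.65, SE 0.112, adjusted p = 0.0480). C12orf57, a small protein of little-known function, was higher by 0.60 on the log2 scale (adjusted p = 0.0315), and SNRPA1, a protein of the U2 spliceosomal particle, by 0.59 (adjusted p = 0.0315). The SNRPA1 level was 105 and 149 CPM in the HNE libraries of the shControl line and 141 and 144 in those of the shHuR line, so the lowest of them lay near the H2O2 range of 82.2 to 97.02 CPM. HTATIP2, an oxidoreductase-like protein, was higher by 0.53 (adjusted p = 0.0386). DFFA, the inhibitor of the apoptotic DNA-cutting enzyme, was higher by 0.42 (adjusted p = 0.0187). These 5 genes were called in 10 to 12 of 20 alternative fits. ID1, which blocks basic helix-loop-helix factors, was next in order and missed the threshold (log2 fold change 0.58, SE 0.102, adjusted p = 0.0503).

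Among the 7 genes called lower with HNE, CYP4V2 had the largest difference. In the shControl line CYP4V2 stood at 12.3 and 10.1 CPM with HNE, 20.3 and 19.0 with H2O2 and 18.0 and 18.2 untreated, and in the shHuR line it stood at 10.8 and 10.2 CPM with HNE, 16.1 and 17.9 with H2O2 and 15.1 and 16.3 untreated. Every HNE library lay below every other library, and the ratio of mean CPM was 1.69 in favour of H2O2 (log2 fold change -0.75, SE 0.0912, adjusted p = 0.00437). It was called in 17 of 20 alternative fits, all but those on FPKM values.

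CALCB, a calcitonin gene-related peptide, stood at 17.5 and 19.9 CPM with HNE against 24.6 and 30.4 with H2O2 in the shControl line, and 8.14 and 8.39 against 13.2 and 14.8 in the shHuR line. HNE lay below H2O2 within each line, but the lines differed so much that the 8 values overlapped (log2 fold change -0.66, SE 0.0942, adjusted p = 0.0204). CCDC113, a coiled-coil protein of cilia, stood at 14.8 and 14.3 CPM with HNE against 24.5 and 20.0 with H2O2 in the shControl line, and 14.03 and 11.9 against 18.1 and 18.6 in the shHuR line (log2 fold change -0.56, SE 0.0903, adjusted p = 0.0315). All 4 of its HNE libraries were below all 4 H2O2 libraries. The uncharacterised locus MGC21881 was at -0.45 on the log2 scale (adjusted p = 0.0315).

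MCM5 stood at 149.6 and 146 CPM with HNE against 172 and 196 with H2O2 in the shControl line, and 144 and 149 against 193 and 186 in the shHuR line (log2 fold change -0.35, SE 0.0523, adjusted p = 0.0274). The 4 HNE libraries agreed closely, at 147 ± 2.42 CPM (SD, n = 4), and lay below all others. EWSR1, an RNA-binding protein of the FET family, had the smallest difference of the 18 and the smallest error, at 325 and 324 CPM with HNE against 388 and 398 with H2O2 in the shControl line, and 355 and 359.7 against 428 and 444 in the shHuR line (log2 fold change -0.28, SE 0.0428, adjusted p = 0.0274). The cell cycle and replication list held MCM5 as its single called gene among 29 tested (against 0.0444% of all genes), with 2 higher and 8 lower at an unadjusted p under 0.05 (against 7.04% and 7.12%) and a median of -0.07. DESeq2 called 4 lower, CCNE2, MCM5, MKI67 and RRM2, and 3 were called lower without both libraries that stood apart, with none higher in either.

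The genes that came next on the lower side did not pass. AMOT, a scaffold of cell junctions, was at -0.31 (adjusted p = 0.0503), and B4GALT6, a glycosyltransferase of lactosylceramide synthesis, at -0.35 (adjusted p = 0.0503). UFL1, the ligase of the ubiquitin-like protein UFM1, was at -0.31 (adjusted p = 0.0503). CPT2, of mitochondrial fatty acid import, was at -0.35 (adjusted p = 0.0510), and THRAP3, a pre-mRNA processing factor, at -0.30 (adjusted p = 0.0551). These 5 genes were picked among those whose HNE libraries were below the H2O2 libraries of the same line (6.44% of all genes). That separation is therefore not a further result.

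Each agent was also set beside the 4 untreated libraries, in a fit of all 12 libraries. The 2 comparisons share those untreated libraries. The HNE comparison shares the HNE libraries with the direct one, and the H2O2 comparison the H2O2 libraries. The values are therefore given side by side and are not independent of each other. Against untreated cells, 88 of 16005 genes were called with HNE (0.55%), 32 higher (0.2%) and 56 lower (0.35%). With H2O2 edgeR called none (0%), DESeq2's Wald test called 2, and 699 genes had an unadjusted p under 0.05 (4.37%). The HNE count was 27 and 22 without shHuR-HNE replicates 1 and 2, 40 and 39 without shHuR-neg replicates 1 and 2, 28 and 48 without shCtrl-neg replicates 1 and 2, 49 without either shHuR-H2O2 library, and 151 and 188 without shCtrl-HNE replicates 1 and 2 (neg marks untreated cells).

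Over the 18 genes the median absolute log2 fold change against untreated cells was 0.48 with HNE and 0.04 with H2O2. These genes were picked for a difference between the same HNE and H2O2 libraries, so the medians are a description. The H2O2 values ran from -0.31 for PROCR to 0.13 for TXNIP. HMOX1 was at 1.44 with HNE (adjusted p = 4.28e-07) and 0.01 with H2O2 (adjusted p = 1.000), and FTL at 0.81 with HNE (adjusted p = 1.02e-05) and 0.05 with H2O2 (adjusted p = 0.998). CYP4V2 was at -0.63 with HNE (adjusted p = 0.00167) and 0.12 with H2O2 (adjusted p = 0.998). For PROCR the estimates of the agents had opposite signs and like size, at 0.34 with HNE (adjusted p = 0.210) and -0.31 with H2O2 (adjusted p = 0.998), with neither passing. Its H2O2 value had an unadjusted p of 0.0201.

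**Figure D3:**
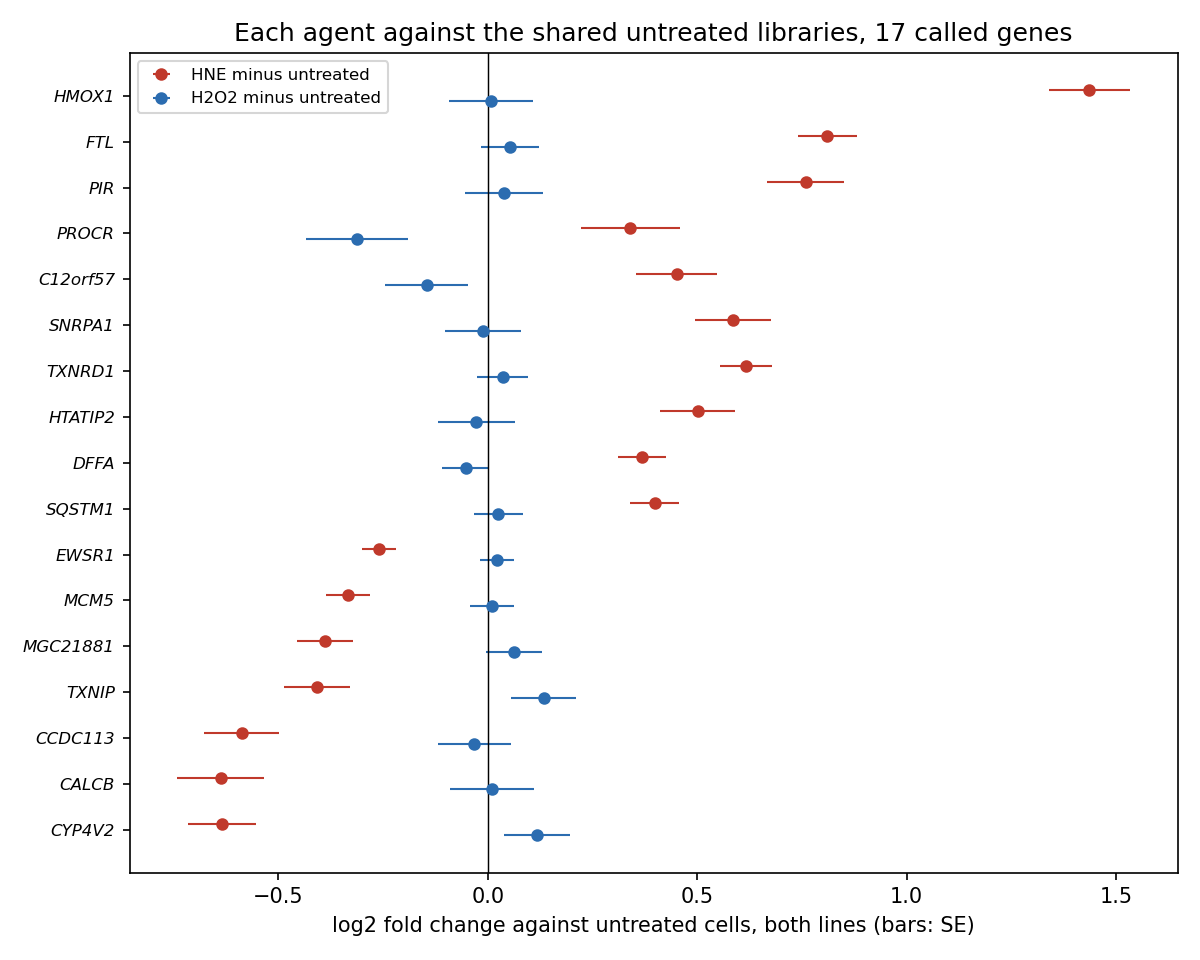
Of the 18 called genes, 17 in each agent against untreated cells. The x axis is the log2 fold change over both lines, red points are HNE and blue points H2O2, both against the same 4 untreated libraries, and bars are SE. The red points run from -0.64 (CALCB) to 1.44 (HMOX1), while the blue points lie between -0.31 and 0.13.

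For several genes the estimate against untreated cells was farther from 0 with H2O2 than with HNE, in either direction. P4HA1, of the HIF and glycolysis list, was at 0.06 with HNE and -0.25 with H2O2. The small RNA SNORA23 was at -0.04 with HNE and -0.31 with H2O2, and UQCRH, of oxidative phosphorylation, at 0.02 and -0.20. None of them passed with either agent. CAT, the catalase that destroys H2O2, stood at 32.4 and 30.5 CPM with HNE against 35.5 and 38.1 with H2O2 in the shControl line, and 30.1 and 30.3 against 33.5 and 33.5 in the shHuR line, and every H2O2 library was above every HNE library, but the difference did not pass (log2 fold change -0.19, SE 0.0615, adjusted p = 0.189). Against untreated cells CAT was at -0.00 with HNE (adjusted p = 0.985) and 0.18 with H2O2 (adjusted p = 0.998). CTH was at -0.09 with HNE (adjusted p = 0.632) and 0.29 with H2O2 (adjusted p = 0.998), and NFE2L2 at 0.12 with HNE (adjusted p = 0.561) and 0.28 with H2O2 (adjusted p = 0.998). None of these passed. SLC7A11 had estimates of like size with both agents, at 0.22 with HNE (adjusted p = 0.0649) and 0.26 with H2O2 (adjusted p = 0.735), and an unadjusted p of 1.12e-04 with H2O2. The superoxide dismutases did not separate the agents either (SOD1 0.21, adjusted p = 0.308, and SOD2 0.08, adjusted p = 0.492). None of 9 peroxide and superoxide genes was called by edgeR, by DESeq2 or without both libraries that stood apart. At an unadjusted p under 0.05, 1 was higher and 1 lower (against 7.04% and 7.12% of all genes).

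The agents were also compared within each line. In the shControl line alone 1 gene was called (0.00634%), HMOX1, and 1337 had an unadjusted p under 0.05 (8.48%). In the shHuR line alone 1192 had an unadjusted p under 0.05 (7.56%) and 4 were called (0.0254%), all higher: FTL, HMOX1, TXNRD1 and the readthrough gene C17orf61-PLSCR3. The readthrough gene is named here after its values were seen. Its mean over both lines, not the shHuR line alone, was 2.60 CPM with HNE and 0.793 with H2O2. The shControl count was 0 without shCtrl-H2O2 replicate 1, 2 without shCtrl-H2O2 replicate 2, 591 without shCtrl-HNE replicate 1 and 4 without shCtrl-HNE replicate 2. The shHuR count was 0 without shHuR-H2O2 replicate 1, 2 without shHuR-H2O2 replicate 2, 0 without shHuR-HNE replicate 2, and 16 without shCtrl-HNE replicate 1 or replicate 2. Leaving out a library of the line tested leaves 1 library in its group, which is then assumed to vary like the other groups.

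All 18 genes had the same sign in both lines. They were called on both lines together, which favours equal signs, so this is a description and not a replication. HMOX1 was 1.41 (SE 0.152) in the shControl line and 1.44 (SE 0.152) in the shHuR line. FTL was 0.60 (SE 0.0846) and 0.91 (SE 0.0849), and TXNRD1 0.45 (SE 0.0751) and 0.70 (SE 0.0754). The test of the difference between lines itself called no gene in edgeR (0%), with a smallest adjusted p of 0.257, 4 genes in DESeq2, and 425 genes at an unadjusted p under 0.05 (2.7%). In the shControl line alone FTL (adjusted p = 0.0769) and TXNRD1 (adjusted p = 0.211) did not pass. For FTL the shHuR line exceeded the shControl line by 0.31 (SE 0.119), which did not pass. Without both libraries that stood apart, 440 genes were called for this difference, but each shControl group then holds 1 library.

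**Figure D4:**
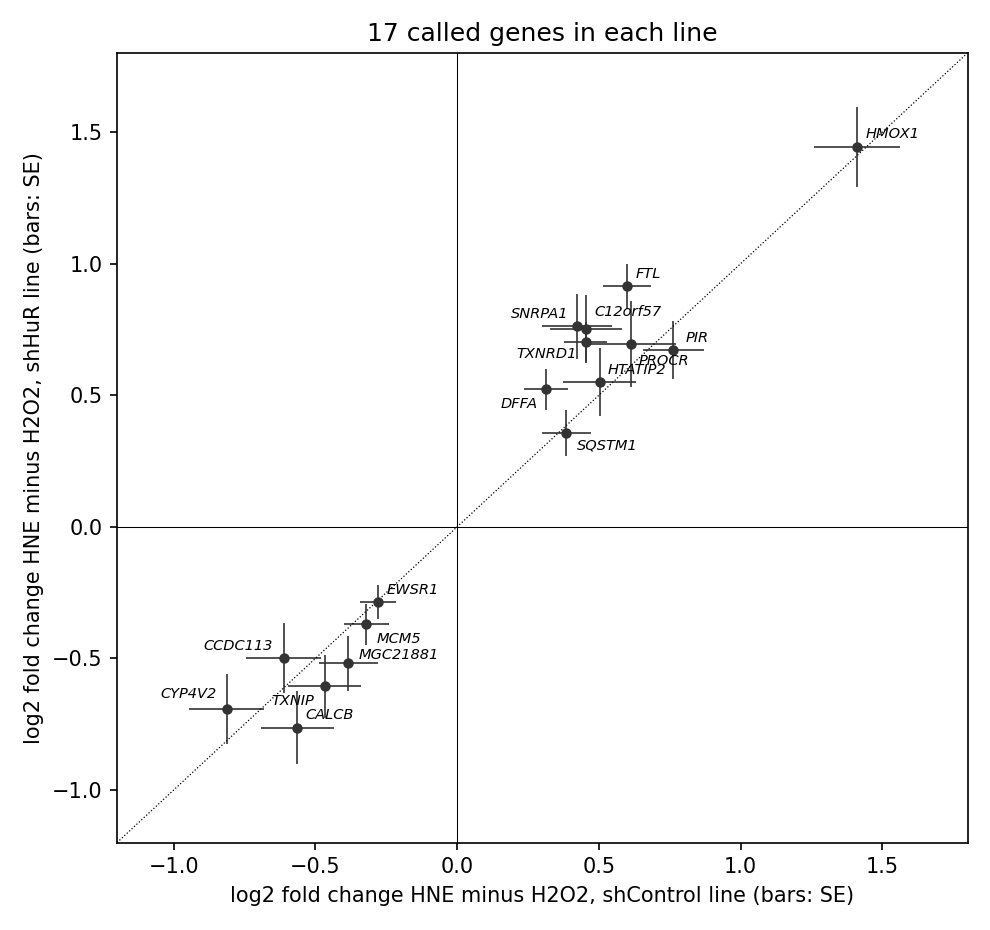
Of the 18 called genes, 17 in each line. The x axis is the log2 fold change (HNE minus H2O2) in the shControl line, the y axis that in the shHuR line, bars are SE and the dotted line marks equal values. The genes, called on both lines together, lie in the 2 quadrants of equal sign, and HMOX1 lies at 1.41 and 1.44.

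Other stress programmes were described in the same way. None of 33 genes of the ATF4 and integrated stress response was called by edgeR, DESeq2 called 3 lower with HNE, and 1 higher and 4 lower were called without both libraries that stood apart. At an unadjusted p under 0.05 the list had 1 higher and 7 lower with HNE (against 7.04% and 7.12% of all genes). In each line 8 members were lower without overlap and none higher (against 6.44% and 6.6% of all genes). Its median was -0.06, and against untreated cells it was 0.01 with HNE and 0.07 with H2O2. ALDH1L2, a mitochondrial folate enzyme, stood at 61.3 and 53.1 CPM with HNE against 65.4 and 74.0 with H2O2 in the shControl line, and 52.8 and 56.3 against 68.7 and 64.1 in the shHuR line (log2 fold change -0.28, SE 0.0652, adjusted p = 0.0951). PCK2, the mitochondrial PEP carboxykinase, was at -0.25 (adjusted p = 0.134), and SESN2, a stress-induced inhibitor of mTORC1, at -0.21 (adjusted p = 0.135). The ATF4 element TGATGNAA (both strands) was found in 8 of the 26 genes of the list with a promoter (30.8%), against 2.88% of tested genes with a promoter.

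None of 28 heat shock genes was called by edgeR and 1 was called higher by DESeq2, with a median of 0.04. At an unadjusted p under 0.05, 4 were higher and 2 lower (against 7.04% and 7.12% of all genes). HSP90AA1, a major cytosolic chaperone, stood at 2169 and 2856 CPM with HNE against 2265 and 2158 with H2O2 in the shControl line, and 3175 and 3087 against 2546 and 2653 in the shHuR line (log2 fold change 0.22, SE 0.0669, adjusted p = 0.162). The shHuR libraries were apart, while 1 of the shControl HNE libraries lay within the H2O2 range. HSPA4, a nucleotide exchange partner of HSP70, was at 0.22 (adjusted p = 0.141). Without both libraries that stood apart HSP90AA1 and HSPA4 were called higher. None of 23 endoplasmic reticulum stress genes was called by edgeR, by DESeq2 or without both libraries that stood apart, and none had an unadjusted p under 0.05.

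Enzymes that clear aldehydes and quinones were described next. Of 25 tested none was called by edgeR, DESeq2 called 2 higher and 1 lower, and the median was -0.09. At an unadjusted p under 0.05, 3 were higher and 4 lower (against 7.04% and 7.12% of all genes). Without both libraries that stood apart 1 was called higher and 1 lower. GLO1, the glyoxalase that removes methylglyoxal, belongs to the glutathione list and stood at 686 and 593 CPM with HNE against 588 and 581 with H2O2 in the shControl line, and 655 and 688 against 515 and 522 in the shHuR line (log2 fold change 0.25, SE 0.0621, adjusted p = 0.106). NQO2, a quinone reductase related to NQO1, was at 0.33 (adjusted p = 0.106) and ALDH6A1, a mitochondrial semialdehyde dehydrogenase, at -0.26 (adjusted p = 0.0951). Of 22 genes for repair of oxidised bases edgeR called none and DESeq2 2 lower, and 3 were called lower without both libraries that stood apart. At an unadjusted p under 0.05, 3 were higher and 3 lower (against 7.04% and 7.12% of all genes). XRCC1, the scaffold of single-strand break repair, was at -0.30 (adjusted p = 0.0971).

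Among 16 NADPH-producing enzymes edgeR called none and DESeq2 1 higher and 1 lower, and 2 higher and 1 lower were called without both libraries that stood apart. At an unadjusted p under 0.05, 2 were higher and 2 lower (against 7.04% and 7.12% of all genes). MTHFD1, of the cytosolic folate cycle, stood at 331 and 362 CPM with HNE against 412 and 397 with H2O2 in the shControl line, and 351 and 338 against 411 and 405 in the shHuR line (log2 fold change -0.24, SE 0.0462, adjusted p = 0.0651), so all 4 HNE libraries were lower. None of 28 genes of cholesterol and fatty acid synthesis was called by either tool, with none higher and 6 lower at an unadjusted p under 0.05 (against 7.04% and 7.12% of all genes), and 1 was called lower without both libraries that stood apart. ACLY, which makes cytosolic acetyl-CoA, was at -0.14 (adjusted p = 0.169). None of 37 HIF and glycolysis genes was called by edgeR or without both libraries that stood apart, and 3 were higher by DESeq2. At an unadjusted p under 0.05, 11 were higher and none lower (against 7.04% and 7.12% of all genes). Their median was 0.09, and against untreated cells it was -0.02 with HNE and -0.10 with H2O2. P4HA1, a collagen prolyl hydroxylase, stood at 162 and 141 CPM with HNE against 139.8 and 132 with H2O2 in the shControl line, and 112 and 107 against 72.4 and 87.0 in the shHuR line (log2 fold change 0.31, SE 0.0779, adjusted p = 0.114).

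None of 39 proteasome genes was called by edgeR, while 3 were higher by DESeq2 and 3 without both libraries that stood apart, and none lower. At an unadjusted p under 0.05, 14 were higher and 1 lower (against 7.04% and 7.12% of all genes), and the median was 0.08. Of the subunits named by the rule, PSMD4, a ubiquitin receptor, was high in shCtrl-HNE replicate 2, at 232 and 314 CPM in the HNE libraries of the shControl line, against 232 and 204 with H2O2. The part of that library in the list's counts was not tested. PSMB1, a subunit of the catalytic core, stood at 257 and 289 CPM with HNE against 249.5 and 209.5 with H2O2 in the shControl line, and 290.3 and 284 against 231 and 256 in the shHuR line (log2 fold change 0.24, SE 0.0630, adjusted p = 0.118). The p53 list (26 tested), the metallothionein and zinc list (8), the immediate early list (27) and the NF-kappaB list (11) had none called by edgeR. At an unadjusted p under 0.05 they had, in that order, 1 higher and 4 lower, 1 and none, 3 and 1, and none and 2 (against 7.04% and 7.12% of all genes). DESeq2 called 1 of them, the immediate early gene IER5, higher. Without both libraries that stood apart 1 p53 target was called lower and 1 gene of the metallothionein and zinc list higher, and none of the other lists. DUSP6, a phosphatase that switches off ERK, had the largest estimate of those named from them, at 1.33 (SE 0.400, adjusted p = 0.164), on a level of 1.07 ± 0.345 CPM with HNE and 0.429 ± 0.190 with H2O2 (SD, n = 4).

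**Figure D5:**
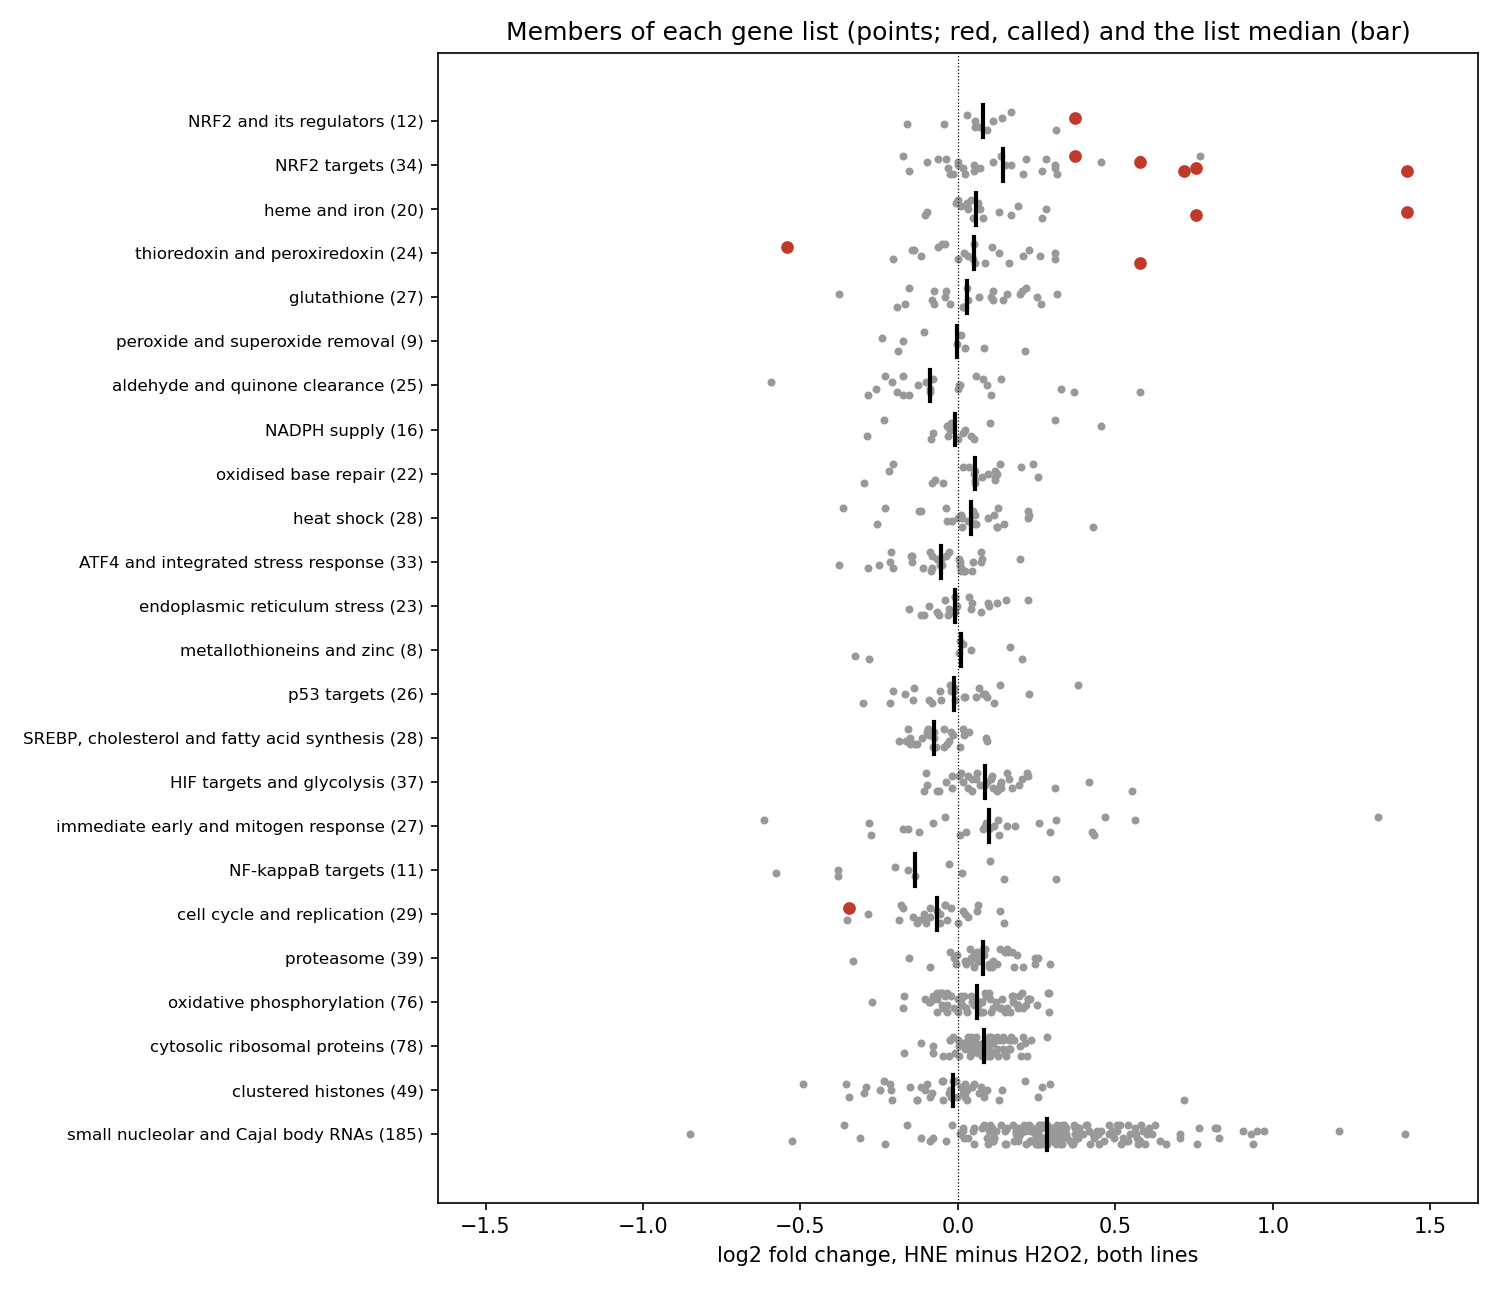
Members of the gene lists in HNE against H2O2. The x axis is the log2 fold change over both lines, grey points are members not called, red points called members, black bars list medians, and the number tested stands in parentheses. The NRF2 target list holds 5 of the red points, and the small nucleolar and Cajal body RNA list has the median farthest from 0, at 0.28.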

How the data were processed

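Gene expression was measured by RNA-seq in 12 libraries. Per the submitters' processing notes, cutadapt 1.8, Bowtie2 2.2, TopHat2 2.1, Cufflinks 2.2, Cuffnorm and Cuffdiff were used with GRCh37 (hg19); their order, the annotation version and the use of strand in counting are not given in the sources used here, so overlapping and antisense genes may share reads. The authors deposited estimated counts per gene, not normalized, of which 2.25% of values, in 701 of 23615 genes, were not whole, and these were rounded. The authors also deposited FPKM values (fragments scaled to transcript length and library size), used in alternatives with a pseudocount of 1 or 0.1 on the log2(value + pseudocount) scale, which understates changes of low genes.

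edgeR 4.0.16 (R 4.3.3) was used with TMM scaling, filterByExpr with a minimum count of 10, and quasi-likelihood F-tests at a Benjamini-Hochberg adjusted p of 0.05. Agent and line were the terms for both lines together, 4 group means served the single lines and their difference, and all 12 libraries the comparisons with untreated cells. The replicates are described in the series design as biological; how they were separated is not given in the sources used here, so p-values measure the spread between these libraries. CPM are TMM-scaled over 12 libraries. The code was tested on simulated data. Alternatives used DESeq2 1.42.0, limma 3.58.1, other scalings and filters, other sets of libraries, each library left out, and the replicate number as a block; leaving out both libraries that stood apart was chosen after seeing the data.

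Named genes were 13 fixed ones, the up to 12 largest changes in each direction among genes called with at least 5 CPM and no overlap within a line, filled up with the smallest p-values, the 3 largest changes in each direction within a line, and, from each list, called members or else up to 3 of smallest p. The values of 1 of the 18 called genes are not reported here. MAFK, TFRC, CCNE2, MKI67, RRM2 and the readthrough gene were added after seeing their values. Members and lists were chosen with earlier results of these data known. Promoters and coordinates are from RefSeq tables of GRCh38.p14, matched by symbol for 13 of 18 called genes. Same-numbered libraries correlated at -0.0652 to 0.126 in their deviations from group means, so replicate numbers were not treated as pairs.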

Additional observations from a re-analysis of the deposited data

Results flagged for a closer look

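Among the 4 H2O2 libraries, shCtrl-H2O2 replicate 1 had a count for 17278 genes, against 18170 to 18267 in the others. Its gap to the nearest library was 0.902 of the whole range, above Dixon's critical value for 4 samples. It was the 1 such case among 72 groups of values tested, where chance gives about 1 in 20. The part of this library in the results was measured by leaving it out, and its cause was not tested.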

How the results depend on the processing

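With edgeR as described, 18 genes separated HNE from H2O2. Their number was 325 with DESeq2, 29 with DESeq2-style size factors, 668 with no filter on low counts, 30 with a mean CPM of at least 1, 149 with all 12 libraries, 39 with whole counts only, 359 without the 2 libraries with the fewest genes, and 5, 6 and 2 with limma on FPKM (pseudocount 1, 0.1, and 1 without filter). Leaving out 1 library gave 5 to 267. The shControl count of 1 became 6 with DESeq2, 216 with no filter, 3 and 2 with limma (0.1, and 1 without filter), 3 with all 12 libraries, 2354 without both libraries, and 0 to 591 without 1 library. The shHuR count of 4 became 47 with DESeq2, 145 with no filter, 9 with limma (0.1), 20 with all 12 libraries, 591 without both libraries, and 0 to 16 without 1 library. The count of 0 for the difference between lines became 4 with DESeq2, 81 with no filter, 4, 5 and 3 with limma, 440 without both libraries, and 0 to 1 without 1 library. For HNE against untreated the count of 88 became 334 with DESeq2, 403 with no filter, 42, 52 and 29 with limma, 39 with the 8 libraries of the agent and untreated, 170 without both libraries, and 22 to 188 without 1 library. For H2O2 against untreated the count of 0 became 2 with DESeq2, 93 with no filter, 1 and 1 with limma (1 and 0.1, with filter), and 0 to 1 without 1 library. The replicate block gave 10 genes for both lines (9 of the 18 among them), 1, 4 and 0 within the lines and for their difference, and 61 and 0 against untreated cells. With both libraries out each shControl group holds 1 library, assumed to vary like the others. A like count can hold other genes. HMOX1, the 1 gene called in the shControl line, was not called there in any of the 3 limma fits. In the shHuR line limma with a pseudocount of 1 called 4 genes with and without filter, none of them among the 4 of edgeR. With a pseudocount of 0.1, 3 of its 9 genes were among them.

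HMOX1 was called in 20 of 20 alternatives, PIR in 19 of 19, FTL in 19 of 20, TXNRD1 in 18 of 20, CYP4V2 in 17 of 20, and the other 13 in 10 to 12 of 20. No called gene changed direction in these. ELAVL1 ran from -0.0409 to 0.00335 over the 20 alternatives and changed sign without shCtrl-H2O2 replicate 2. The cause of these differences was not tested. With 2 libraries a group, 5 residual degrees of freedom were left for both lines, which limits the precision.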

Other observations

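Non-coding and housekeeping transcripts were not part of the stress programmes above. Of 185 small nucleolar and Cajal body RNAs tested, which guide the modification of ribosomal and spliceosomal RNA, edgeR called none and DESeq2 called 6 higher with HNE, as many as were called without both shControl libraries that stood apart. At an unadjusted p under 0.05, 29 were higher and none lower (against 7.04% and 7.12% of all genes). In 6 of the 185 the HNE libraries lay above the H2O2 libraries in each line, and in none below (against 6.6% and 6.44% of all genes). Against untreated cells the list's median was 0.09 with HNE and -0.22 with H2O2. For HNE against H2O2 the median log2 fold change was 0.28. That median was 0.64 in the shControl line and -0.03 in the shHuR line, its SD between replicates was 0.383, and small RNAs took 1.13% of the counts of shCtrl-HNE replicate 2 and 1.05% of those of untreated shCtrl-neg replicate 2, against 0.694% to 0.783% in the other 3 HNE libraries and 0.582% to 0.779% in the H2O2 libraries. The part of that library in the result was not tested beyond leaving it out, and the median ran from 0.05 to 0.51 over the alternatives. SNORA55, a guide of pseudouridylation, had a log2 fold change of 0.94 (SE 0.239, adjusted p = 0.115), and SNORA23 one of 0.27 (SE 0.0639, adjusted p = 0.103).

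None of 78 cytosolic ribosomal protein genes was called by edgeR, by DESeq2 or without both libraries, with 14 higher and none lower at an unadjusted p under 0.05 (against 7.04% and 7.12% of all genes) and a median of 0.08. In 1 of the 78 the HNE libraries lay above the H2O2 libraries in each line (against 6.6% of all genes). Against untreated cells the list's median was 0.01 with HNE and -0.07 with H2O2. RPL24 stood at 1168 and 1400.0 CPM with HNE against 1170.0 and 1032 with H2O2 in the shControl line, and 1129.6 and 1109.5 against 911 and 1071 in the shHuR line, with shCtrl-HNE replicate 2 the highest of the 8, as it was for RPS14 and RPL13. Of 76 oxidative phosphorylation genes edgeR called none and DESeq2 2 higher, as many as without both libraries. At an unadjusted p under 0.05, 12 were higher and 3 lower (against 7.04% and 7.12% of all genes). In each line 2 were higher without overlap and 2 lower (against 6.6% and 6.44% of all genes). The median was 0.06, beside an SD between replicates of 0.111. Of 49 clustered histone genes edgeR called none and DESeq2 3 in each direction, and 3 higher and 4 lower were called without both libraries. At an unadjusted p under 0.05, 3 histone genes were higher and 9 lower (against 7.04% and 7.12% of all genes). In each line 2 were higher without overlap and 6 lower (against 6.6% and 6.44%), and the list's median was -0.02. HIST1H2AK was at 0.27 (adjusted p = 0.0684) and HIST1H2AL at -0.35 (adjusted p = 0.0951). Histone genes are near-identical copies that can share reads, so these 2 values are uncertain.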
